A study of Mus musculus with 16 samples.

Results

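Older LINE peaks are the peaks of the sperm RNA lists that lie in long interspersed elements other than those named L1Md, the youngest mouse L1 group. They were chosen by the repeat name in the authors' annotation alone: the class had to be LINE and the name must not start with L1Md. Across the 8 lists 21901 of 159135 peaks met this rule, against 4475 in L1Md elements. They carried 123 subfamily names, and L1 names made up all but 470 peaks in L2, 41 in CR1 and 4 in RTE-X. The 8 lists held 512 to 8324 of them each.

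The lists come from epididymal sperm of 4 Dnmt2-/- males on the C57BL/6 background, aged 6 to 8 months. Males 1 and 2 were kept on ND (normal diet), males 3 and 4 on HFD (high-fat diet with butter). Dnmt2, an enzyme that methylates cytosines in RNA and is encoded by Trdmt1, is missing from the whole body in all 4, so no group here has a working copy. Each male gave a D library (RNA bound to DNA, released by DNase from purified genomic DNA) and an F library (free RNA of the aqueous phase), and 8 wild-type libraries were not analysed here. With 2 males per diet, what is particular to 1 animal and what belongs to a diet cannot be told apart.

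LINEs are mobile elements that move through an RNA copy, which their own proteins reverse-transcribe and insert elsewhere in the genome. Most copies are cut short at the 5′ end, have gathered mutations and can no longer move; in the male germ line L1 elements are silenced by DNA methylation and piRNAs. In mouse, Lx elements spread in early murine rodents, most names in L1M, L1P and HAL1 are shared with other placental mammals, and L2 and CR1 elements are older still. The lists do not give the strand of a peak, and a read from such a copy can come from the element or from a longer transcript that runs through it.

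The authors' HOMER annotation gave a repeat name to no peak in exons, UTRs, promoters, transcript ends or noncoding exons, so all 21901 members were in introns (5991) or between genes (15910). F of male 1 had 46.6% of its annotated peaks in exons and F of male 3 had 7.10%, against 0.257% to 0.615% in the other 6 lists. For this reason the share of older LINE peaks is given over all annotated peaks and again over intron and intergenic peaks. In the same 2 lists, 16 and 10 of 16 epididymal epithelium markers (such as Gpx5, Crisp1 and Lcn5 in F of male 1) had a peak in the gene body or at its ends, against 0 or 1 in the others. Of 12 sperm and spermatid markers, 10 had one in F of male 1 and 0 in each of the other lists, so the labelled cell type could be checked by its markers in a single library. Of 6 leukocyte markers 0 or 1 had a peak in any list, and of 4 erythroid markers 2 in F of male 1, 1 in F of male 4 and 0 elsewhere. F of males 1 and 3 had an exon or UTR peak in 6075 and 963 genes, against 46 to 281 in the other lists. The marker counts thus stand beside very different numbers of such genes. The part of other cells in the results was not tested, and results are given with and without males 1 and 3 where that changed a direction. In such bulk samples fewer cells of a type and less RNA per cell cannot be told apart.

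Sequences were read where an older LINE peak lay wholly within 1 exon of a gene that GENCODE M21 does not type as protein coding. This was possible for 54 of the 21901 peaks (0.247%). Shown here are a peak of the subfamily Lx in D of male 1 and the 4 readable peaks that share a run of at least 25 bases with it; the longest run shared with it among the other readable peaks compared (51 in all) was 16 bases. They are printed because peaks at separate places, in D and F and under 3 subfamily names, each share a run with the first. The runs are not 1 run: they overlap along the first sequence, and 5 of its bases are common to all. Capitals mark the bases shared with the first sequence, and in the first sequence all bases (83 to 132 from its left end) shared with at least 1 of the others.
Lx in D of male 1: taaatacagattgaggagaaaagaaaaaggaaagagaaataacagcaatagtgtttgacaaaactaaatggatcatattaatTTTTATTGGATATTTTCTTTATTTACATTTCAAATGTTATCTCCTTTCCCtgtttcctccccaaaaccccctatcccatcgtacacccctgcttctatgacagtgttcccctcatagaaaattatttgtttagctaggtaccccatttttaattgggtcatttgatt
L1_Mus4 in D of male 3: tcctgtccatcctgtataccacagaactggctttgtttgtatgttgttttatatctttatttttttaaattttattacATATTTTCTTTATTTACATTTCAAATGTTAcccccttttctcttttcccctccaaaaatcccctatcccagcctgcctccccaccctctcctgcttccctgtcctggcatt
Lx in F of male 3: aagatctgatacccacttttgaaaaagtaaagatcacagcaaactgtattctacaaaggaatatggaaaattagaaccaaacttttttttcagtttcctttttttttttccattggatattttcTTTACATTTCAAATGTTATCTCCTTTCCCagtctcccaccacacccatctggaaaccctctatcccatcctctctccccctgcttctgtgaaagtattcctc
L1_Mus1 in D of male 3: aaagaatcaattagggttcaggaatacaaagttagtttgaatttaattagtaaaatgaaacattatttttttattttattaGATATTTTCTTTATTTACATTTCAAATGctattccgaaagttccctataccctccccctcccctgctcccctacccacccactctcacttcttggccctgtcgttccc
Lx in F of male 4: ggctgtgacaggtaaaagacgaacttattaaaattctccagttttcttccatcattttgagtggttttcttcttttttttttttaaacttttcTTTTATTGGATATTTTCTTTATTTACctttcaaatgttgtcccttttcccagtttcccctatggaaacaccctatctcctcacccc

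The first peak lies at chr13:87979387-87979635 in mm10, printed on the plus strand, in an exon of Gm47649. Every Gm gene named with a printed sequence has the GENCODE type TEC, a gene still awaiting experimental proof, so its coding status is open. The L1_Mus4 peak lies at chr1:32967832-32968020 in Gm37151 and is printed on the minus strand. The Lx peak of F of male 3 lies at chr8:14067481-14067706 in Gm45520 and is also printed on the minus strand. The L1_Mus1 peak lies at chr7:143204543-143204731, plus strand, in Kcnq1ot1, a long noncoding RNA of an imprinted region that is itself transcribed from the minus strand. The Lx peak of F of male 4 lies at chr5:131975705-131975883, plus strand, in Gm42991. The shared runs were 30, 29, 28 and 26 bases long in that order. Over the 54 readable older LINE peaks the longest run shared with another of them, on either strand, had a median of 14 bases (range 11 to 34), and for 10 readable L1Md peaks it had a median of 17 (10 to 35). Adenine and thymine made up a median of 58.7% of a readable older LINE peak (44.1% to 70.4%).

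Older LINE peaks were 14.1% to 16.7% of the annotated peaks of the D lists and 2.15% to 17.9% of those of the F lists. In D they were 15.0% of annotated peaks in male 1 (512 of 3416, 95% Wilson interval 13.8 to 16.2), 16.7% in male 2, 14.1% in male 3 and 16.1% in male 4. In F they were 2.15% in male 1 (545 of 25367, 1.98 to 2.33), 15.0% in male 2, 14.2% in male 3 and 17.9% in male 4. The mean was 15.5% ± 1.17 in D and 12.3% ± 6.97 in F (SD, n = 4), so F of male 1 stood below all other lists and the remaining F values lay around the D values. F minus D averaged −3.17 percentage points ± 6.60 (exact sign-flip permutation test over males, two-sided, p = 0.75, lower in 2 of 4 males, smallest p possible 0.125). Without male 1 the mean difference was 0.0553. With peaks in rRNA, satellites, simple and low-complexity repeats taken out of the total it was −6.73, lower in F in 4 of 4 males (exact sign-flip test, n = 4, p = 0.125, the smallest possible), so this value depends on the total used.

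**Figure D1:**
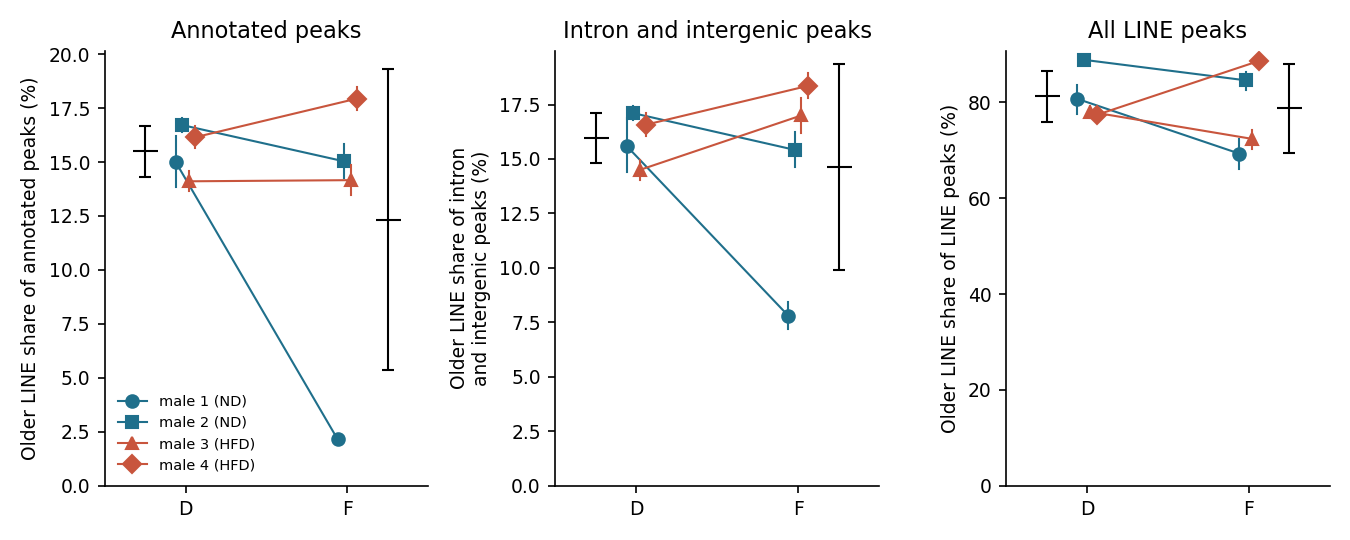
Older LINE share (%) of annotated peaks, of intron and intergenic peaks, and of all LINE peaks, by fraction. Points joined by a line are the D and F library of 1 male, vertical lines on points are 95% Wilson intervals and black bars are the mean ± SD of 4 males. F of male 1 lies lowest in each panel (2.15%, 7.80% and 69.3%), while the 4 D libraries lie between 14.1% and 16.7% of annotated peaks.

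Counted over intron and intergenic peaks, where a repeat name is possible, the share in D was 15.6%, 17.1%, 14.5% and 16.6% in males 1 to 4. The share in F was 7.80%, 15.4%, 17.0% and 18.4%. F of male 1 was lowest again, and F of males 3 and 4 lay above their own D libraries. The mean difference was −1.30 percentage points ± 4.70 (exact sign-flip test, n = 4, p = 0.875), and without male 1 it was 0.866.

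Set against the young L1Md elements, older elements made up most LINE peaks in every list. In D their share of all LINE peaks was 80.8%, 88.9%, 78.1% and 77.4% for males 1 to 4. In F it was 69.3%, 84.6%, 72.4% and 88.7%. It was lower in F than in D in males 1, 2 and 3 and higher in male 4. F minus D was −2.53 percentage points ± 9.68 (exact sign-flip test, n = 4, p = 0.625). Without male 1 the mean was 0.437, and in males 2 and 4 alone it was 3.48.

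Between the diets the D shares overlapped. ND averaged 15.9% and HFD 15.1% of annotated peaks, which is −0.722 percentage points for HFD minus ND (p = 0.667 by an exact permutation test over 6 splits, n = 2 per diet, smallest possible 0.333). In F the averages were 8.59% on ND and 16.1% on HFD, with the HFD value of male 3 (14.2%) below the ND value of male 2 (15.0%), and p = 0.667 by the same exact test. Without male 1 the difference of 7.46 percentage points became 1.02, and without male 2 it became 13.9. Over intron and intergenic peaks both F libraries on HFD lay above both on ND, with means of 17.7% and 11.6% and the smallest p the exact test allows (0.333). Since F of male 1 is an ND library, its low value and the diet cannot be told apart.

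The subfamilies fall into a few groups. Lx and its numbered forms held 13084 peaks under 21 names, L1_Mus names 4257 under 4, L1_Mur and L1_Rod 1555 under 4, L1M, L1P and HAL1 2106 under 79, L1VL 328 under 3 and L1_Mm 56. The HAL1 names include MusHAL1 with 87 peaks. The 10 names with most peaks were L1_Mus3 (1817), Lx2 (1388), Lx (1345), Lx7 (1178), L1_Mus1 (1033), Lx3_Mus (905), Lx5 (845), Lx9 (811), Lx6 (790) and Lx8 (711). Together these 10 held 49.4% of the peaks, and 38 names had fewer than 10 peaks.

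Lx elements, which amplified early in the murine lineage, were the largest group in 7 of 8 lists. In D they were 52.1%, 65.7%, 57.4% and 58.2% of older LINE peaks for males 1 to 4. The F lists held 35.6%, 58.5%, 45.0% and 60.5%. The values in F were thus lower in males 1, 2 and 3 and higher in male 4. F minus D was −8.44 percentage points ± 8.15 (exact sign-flip test, n = 4, p = 0.25, adjusted p = 0.40 by Benjamini-Hochberg over 8 families).

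L1_Mus elements, younger than Lx, were the largest group in the remaining list, F of male 1. For males 1 to 4 they were 18.2%, 15.4%, 23.8% and 24.3% of older LINE peaks in D. In F they were 40.7%, 13.9%, 32.5% and 13.3%. F of males 1 and 3, the lists with epididymal markers, lay above all D libraries, and F of males 2 and 4 lay below all of them. The mean difference was 4.68 percentage points ± 14.4 (exact sign-flip test, n = 4, p = 0.75), and in males 2 and 4 alone it was −6.26. The planned family joined L1_Mus with L1_Mur and L1_Rod, and the split was made later. Together they were 27.0%, 22.3%, 29.4% and 29.9% in D and 44.2%, 23.2%, 39.4% and 23.5% in F of males 1 to 4. F of males 2 and 4 then lay above D of male 2. The joint difference was 5.46 percentage points ± 10.3 (exact sign-flip test, p = 0.375, higher in F in 3 of 4 males). L1_Mus1 had 14.1% and 10.8% of older LINE peaks in F of males 1 and 3 against 2.63% to 6.66% in the other 6 lists.

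**Figure D2:**
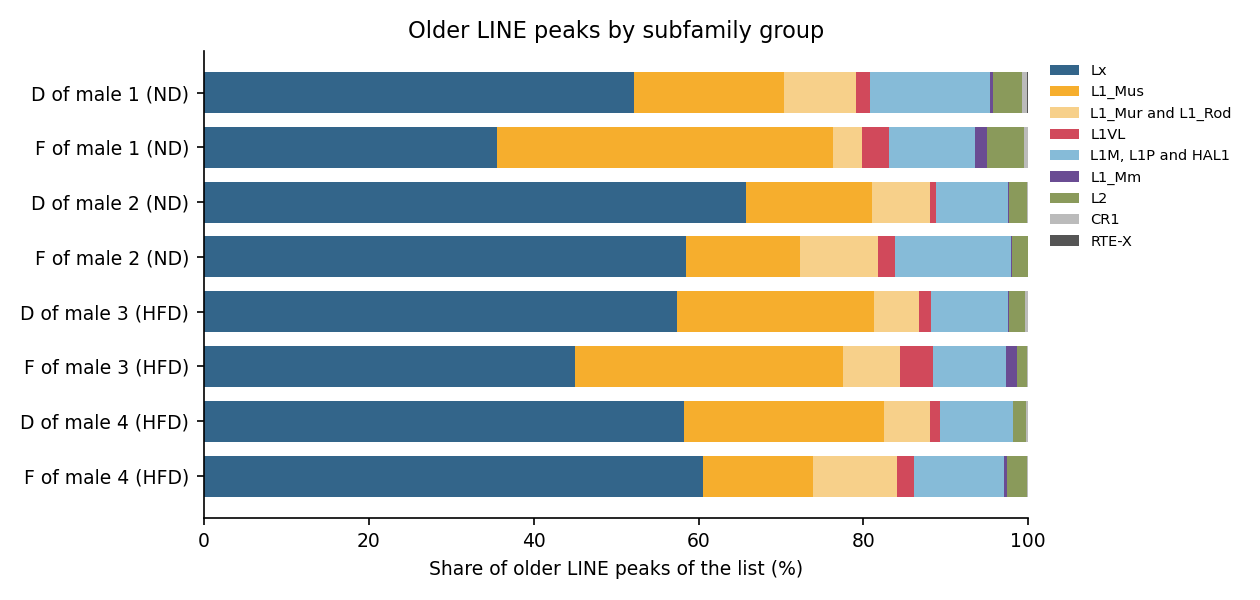
Share (%) of the older LINE peaks of each list by subfamily group, as stacked bars for the 8 libraries with the diet in brackets. Lx is the largest part except in F of male 1, where L1_Mus reaches 40.7%.

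L1VL elements were a small group with higher values in F in all 4 males as a share of older LINE peaks. Among older LINE peaks in D they were 1.76%, 0.79%, 1.38% and 1.20% for males 1 to 4. In F they were 3.30%, 2.11%, 3.92% and 2.09%, so that the lowest F value lay above the highest D value. The mean was 1.28% ± 0.400 in D and 2.85% ± 0.907 in F (SD, n = 4). F minus D was 1.57 percentage points ± 0.70 (exact sign-flip test, p = 0.125, the smallest possible, adjusted p = 0.40 over 8 families), and without the pairing the exact permutation test over 70 splits gave p = 0.0286. The peaks behind these shares are few: for L1VL2 the D lists had 1, 19, 13 and 18 and the F lists 10, 9, 25 and 20. L1VL4 had 7, 42, 23 and 16 in D and 4, 10, 26 and 46 in F, and as a share of older LINE peaks it was lower in F in male 1. Over intron and intergenic peaks, L1VL as a whole was 9 of 3282 in D of male 1 and 18 of 6989 in F of male 1. F was thus not higher in that male, so the direction in all 4 males depends on the total used.

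The L1VL peak whose sequence could be read, an L1VL1 peak of F of male 3 at chr1:54518863-54519088 (mm10, plus strand) in an exon of Gm36955, is shown as an example of this group. Its longest run shared with another readable older LINE peak was 12 bases, so no part is in capitals.
L1VL1 in F of male 3: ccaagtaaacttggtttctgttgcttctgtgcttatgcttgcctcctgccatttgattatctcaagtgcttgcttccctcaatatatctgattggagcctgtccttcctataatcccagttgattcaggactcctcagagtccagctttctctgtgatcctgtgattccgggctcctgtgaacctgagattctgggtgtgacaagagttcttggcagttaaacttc

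The oldest groups had means close to each other in D and F. L1M, L1P and HAL1 names were 10.3% ± 2.77 of older LINE peaks in D and 11.1% ± 2.16 in F (SD, n = 4, F minus D 0.759 percentage points, exact sign-flip test p = 0.75). In males 1 to 4 the difference was −3.99, 5.35, −0.440 and 2.12, so opposite changes lie behind the close means. L2 names were 2.35% ± 0.828 in D and 2.50% ± 1.35 in F, with p = 0.75 by the same exact test. No family passed the adjustment, and with 16 sign patterns no value could.

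**Figure D3:**
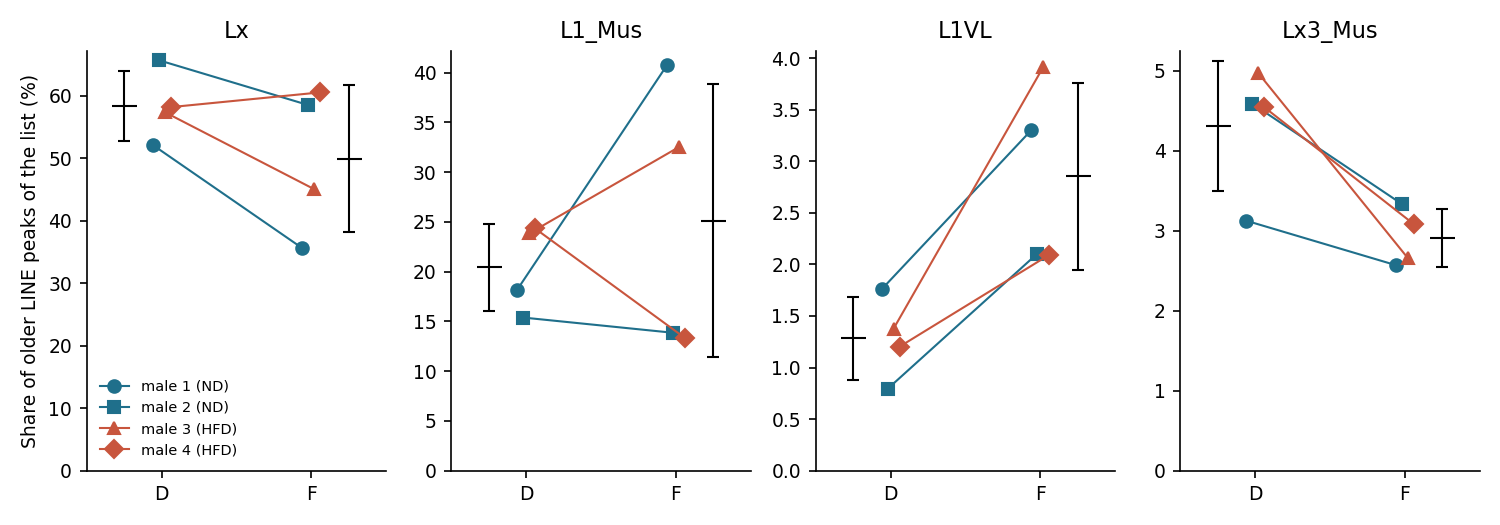
Share (%) of older LINE peaks in Lx, L1_Mus and L1VL elements and in the subfamily Lx3_Mus, with the D and F library of each male joined and the mean ± SD of 4 males in black. L1VL lies higher in F and Lx3_Mus lower in F in all 4 males, and L1_Mus stands at 40.7% and 32.5% in F of males 1 and 3.

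Single subfamilies were counted beside all repeat names with at least 100 peaks, of which 131 exist and 36 are older LINE names. As a share of annotated peaks, 29.0% of all such names (38 of 131) were lower in F than in D in 4 of 4 males, and 1.53% were higher. Of the 36 older LINE names 6 (16.7%) were lower and 1 (2.78%) higher, so fewer of them were lower than among all names, with no test of that difference. The 6 were L1_Mus4, Lx, Lx2A, Lx2A1, Lx2B and Lx3_Mus. With intron and intergenic peaks as the total, 24.4% of all names were lower and 6.87% higher, against 4 older LINE names lower (Lx, Lx2A, Lx2B and Lx3_Mus) and 1 higher (L1VL2). All 4 F libraries lay above all 4 D libraries for 3.82% of names, L1VL2 among them, and below for 16.8% of names, none of which was an older LINE name.

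Of the 10 largest names, Lx3_Mus alone was lower in F in 4 of 4 males as a share of older LINE peaks. In D it was 3.13%, 4.59%, 4.97% and 4.55% for males 1 to 4. In F it was 2.57%, 3.33%, 2.66% and 3.08%, lower than D in each male, although the F value of male 2 lay above the D value of male 1. The difference was −1.40 percentage points with the means at 4.31% ± 0.812 in D and 2.91% ± 0.36 in F (SD, n = 4, exact sign-flip test p = 0.125). It was singled out after its values were seen. Among names with at least 100 peaks, Lx3B, Lx2A1 and Lx2A were also lower in F in 4 of 4 males on this measure, and L1VL2 was higher. With intron and intergenic peaks as the total, Lx, also among the 10 largest, was lower in 4 of 4 males too. Each of the other 9 was higher in F in 1, 2 or 3 of 4 males, among them Lx8 (3.56% ± 0.623 in D and 2.41% ± 0.614 in F), Lx5 (3.77% ± 0.663 and 2.86% ± 1.27), Lx7 (4.95% ± 0.780 and 5.76% ± 1.61) and L1_Mus3 (8.54% ± 1.09 and 9.78% ± 4.03).

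Older LINE peaks lay between genes more often than the other intron and intergenic peaks in every list. In D 71.3%, 75.0%, 72.5% and 73.6% of them lay between genes in males 1 to 4. In F this was 42.4%, 74.6%, 57.8% and 76.7%. F of males 1 and 3 stood apart with more intron peaks. The mean F minus D was −10.2 percentage points ± 14.6 (exact sign-flip test, n = 4, p = 0.375), and in males 2 and 4 alone it was 1.35. Compared with the other intron and intergenic peaks of the same list, the intergenic share was higher by 10.6 percentage points ± 1.47 on average over the 4 males (exact sign-flip test, p = 0.125, higher in 4 of 4). This is not particular to older elements: L1Md peaks were intergenic in 75.6% to 82.0% of cases in D and 43.6% to 82.0% in F, and ERVL, MaLR and ERV1 LTR peaks in 69.5% to 75.2% and 49.3% to 71.8%.

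The median distance of an older LINE peak to the nearest annotated transcription start was 102446 to 112000.5 bases in the 4 D lists. In F it was 63051, 113991, 76814 and 116722 bases in males 1 to 4. The other intron and intergenic peaks had medians of 60906 to 64586 bases in D and 23938 to 66820 in F. On the log2 scale the ratio of these medians averaged 0.86 ± 0.12 over the 4 males (exact sign-flip test, p = 0.125, above 0 in 4 of 4). L1Md peaks had medians of 125677 to 212238 bases in D and 57986 to 135789 in F, larger than those of older LINE peaks in every list but F of male 3.

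Within the older LINE peaks the position varied with the group. Lx peaks were intergenic in 75.3% to 76.8% of cases in the D lists, and in 49.5%, 76.3%, 70.7% and 77.3% in F of males 1 to 4. For L1M, L1P and HAL1 the range in D was 58.8% to 66.0%, and F gave 36.8%, 66.9%, 63.0% and 65.6%, below Lx in every list. The difference averaged 12.3 percentage points ± 1.98 (exact sign-flip test over 4 males, p = 0.125, higher in 4 of 4). The median distance to a transcription start was 71929 to 147745 bases for Lx and 52248 to 74579 bases for L1M, L1P and HAL1, larger for Lx in every list. For L2, with 18 to 188 peaks per list, it was 31258 to 75438 bases.

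The X chromosome, which is rich in L1 copies, held 6.25%, 1.66%, 6.32% and 4.96% of older LINE peaks in D and 8.44%, 4.82%, 5.94% and 2.81% in F, in the order of males 1 to 4. The lists differ widely, from 1.66% in D of male 2 to 8.44% in F of male 1, but in each list the value lay above that of the other annotated peaks (1.42% to 3.45%). Averaged over the libraries of a male, the excess was 2.54 percentage points ± 1.21 (exact sign-flip test, n = 4, p = 0.125, positive in 4 of 4). L1Md peaks lay on X in 3.47% to 10.4% of cases.

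Part of the X peaks lay in 1 gene. Frmpd4, which encodes a synaptic scaffold protein, spans 1105936 bases of X and had 17 older LINE peaks in its introns in F of male 1 and 27 in F of male 3, against 0 to 3 in the other lists. Without Frmpd4 the X share fell from 8.44% to 5.49% in F of male 1 and from 5.94% to 4.13% in F of male 3, and the mean excess was 1.95 percentage points, again positive in 4 of 4 males.

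Frmpd4 led all genes with 55 older LINE peaks in introns. Ptprd, a receptor tyrosine phosphatase, followed with 32, then A330093E20Rik, a long noncoding RNA, and Cntnap2, a neuronal adhesion protein, with 27 each, and Lrp1b, a lipoprotein receptor relative, and Zfp804b, a zinc finger protein, with 26 each. In all 2729 genes had such a peak and 1644 of them had a single one. Ptprd, Cntnap2 and Lrp1b span 2270506, 2241333 and 2058309 bases and had peaks in 7 lists each.

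Frmpd4, A330093E20Rik and Zfp804b had most of their peaks in the F libraries of males 1 and 3. A330093E20Rik had 7 and 14 there and 0 to 3 in each other list, and Zfp804b had 7 and 11 there and 0 to 5 elsewhere. Frmpd4 held 5.41% and 4.47% of all older LINE intron peaks of these F libraries, against at most 1.04% in the others. Of its peaks there 10 of 17 and 15 of 27 were named L1_Mus1. All intron peaks of Frmpd4, of whatever class, numbered 41 and 54 in these libraries and 0 to 8 in the others, so peaks outside older LINEs were also more numerous there.

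Older LINE intron peaks in genes that also had an exon or UTR peak in the same list were counted too. In F of male 1 the share was 37.5% (117 of 312) and in F of male 3 it was 14.2% (85 of 598). In the other lists it was 0% to 3.34%, and the 0 of 146 in D of male 1 allows up to 2.05% by the limit of 3 counts and 2.56% by the Wilson interval. Other intron peaks outside repeats lay in such genes in 69.3% of cases in F of male 1 and in 14.5% in F of male 3. In these 2 F libraries 6075 and 963 genes had an exon or UTR peak, against 46 to 281 in the others.

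Few older LINE peaks were found at the same place in several lists. Merged over the lists they form 20822 positions, of which 91.3% had a peak in 1 list, 1809 in at least 2 and 27 in at least 4. A peak of a list overlapped a peak of any other list by at least 1 base in 14.2% ± 1.41 of cases (SD over the 8 lists, range 11.5% to 15.965%), against 23.0% ± 5.04 for the other intron and intergenic peaks and 11.8% ± 3.24 for L1Md peaks. The value for older LINE peaks lay below that of the other intron and intergenic peaks in every list but F of male 1 (15.96% against 11.6%), with no test of the difference. With a shared part of 50% or more of each peak required, the mean was 6.75% for older LINE peaks, 7.07% for L1Md peaks and 11.8% for the other intron and intergenic peaks, so the order of older LINE and L1Md peaks turned. Peaks of D of male 2 are up to 400 bases wide and those of F of male 1 up to 170, which limits such overlaps.

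**Figure D4:**
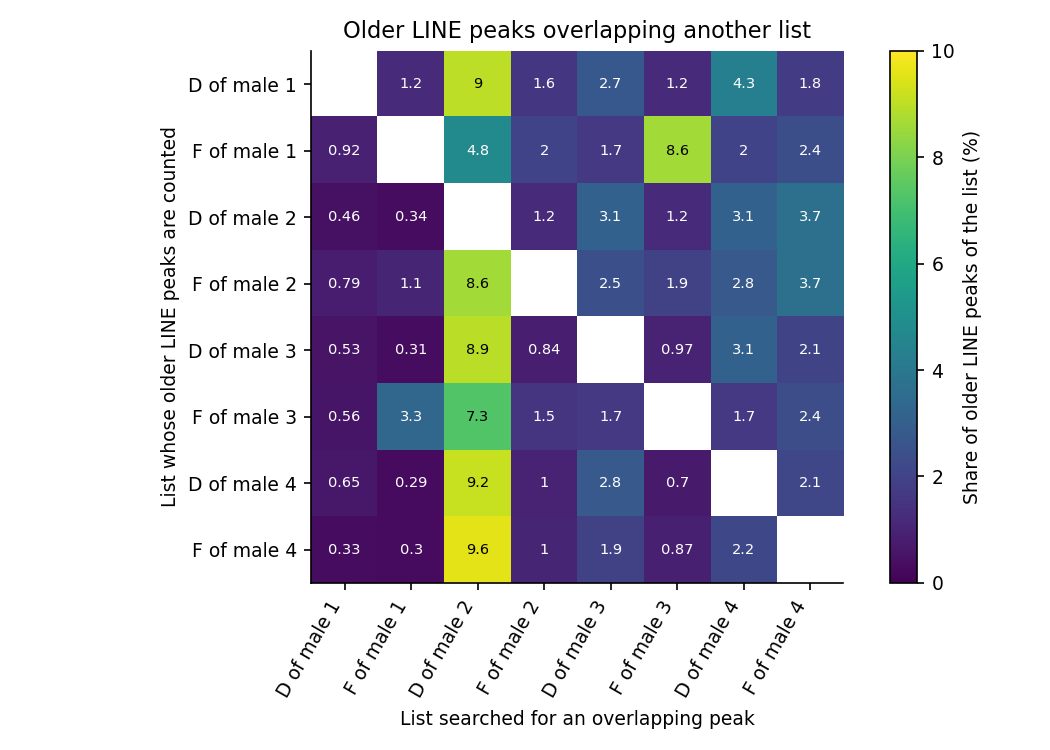
Share (%) of the older LINE peaks of each list (rows) that overlap a peak of each other list (columns) by at least 1 base. The column of D of male 2, the longest list with the widest peaks, is high throughout (4.77% to 9.60%), and outside that column the highest value is 8.62% for F of male 1 in F of male 3.

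Of the older LINE peaks in D, 1.17%, 1.19%, 0.970% and 2.14% met a peak in the F library from that animal (males 1 to 4). From F to D the values were 0.917%, 8.60%, 1.68% and 2.15%, the highest being male 2, whose D list is the longest. For the other intron and intergenic peaks the values were 4.15%, 2.67%, 1.89% and 3.51% from D to F. In the reverse direction they were 1.77%, 17.3%, 5.21% and 4.07%. Older LINE peaks thus lay below them in every list, with no test of the difference. Between F of males 1 and 3, 47 of 545 peaks of F of male 1 overlapped (8.62%, 95% Wilson interval 6.55 to 11.3), and the same number is 3.29% of the 1430 in F of male 3. The other intron and intergenic peaks gave 5.07% from F of male 1 to F of male 3 and 6.37% in the reverse direction, so older LINE peaks were higher one way and lower the other. Of the 47, 29 (61.7%) were L1_Mus elements and 9 were Lx, against 38.8% and 37.1% of the 498 peaks not shared. In introns lay 39 of the 47, among them 10 in Frmpd4, 3 each in A330093E20Rik, Plcl1 and Zbtb20 and 2 in Gm1110.

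A position in intron 3 of Gm1110 and another in intron 3 of Frmpd4 had an older LINE peak in all 4 F libraries and no peak in any D library. Over 119220 intron and intergenic positions of the 8 lists, 3 had this pattern (0.00252%) and 116 the opposite one, all 4 D and no F (0.0973%). Older LINE positions were 20821 of these, with 2 of the 3 and 3 of the 116. These positions were picked by their pattern and are given as a description.

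The Gm1110 position is an L1_Mus2 element at chr9:26918224-26918497 (mm10). Its peak scores, in the authors' unit and comparable within a list only, were 787.6 in F of male 1, 140 in male 2, 1028.2 in male 3 and 108.8 in male 4. By score it ranked 117th of 25406 peaks, 121st of 7635, 49th of 10143 and 140th of 18709, and it was among the 3 highest older LINE peaks of each F list. The Frmpd4 position is an L1_Mus1 element at chrX:168238090-168238410. Its scores were 61.4, 88.3, 201.4 and 57.5 in F of males 1 to 4, at ranks 3563, 333, 193 and 281.

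The 3 positions of the opposite pattern were Lx elements between genes. An Lx5c element at chr3:9336979-9337378 near C030034L19Rik scored 11.4, 74.1, 849.7 and 359.5 in the D lists, taken from male 1 to male 4. An Lx5 element at chr4:16747930-16748329 near A530072M11Rik had 22.8, 35.4, 378.5 and 177.3. An Lx8 element at chr4:59292656-59293055 near Gm12596 had 27.4, 31.9, 273.5 and 286.6. By score they ranked 3029, 1970 and 1634 of 3427 peaks in D of male 1 and 74, 140 and 200 of 22726 in D of male 3.

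**Figure D5:**
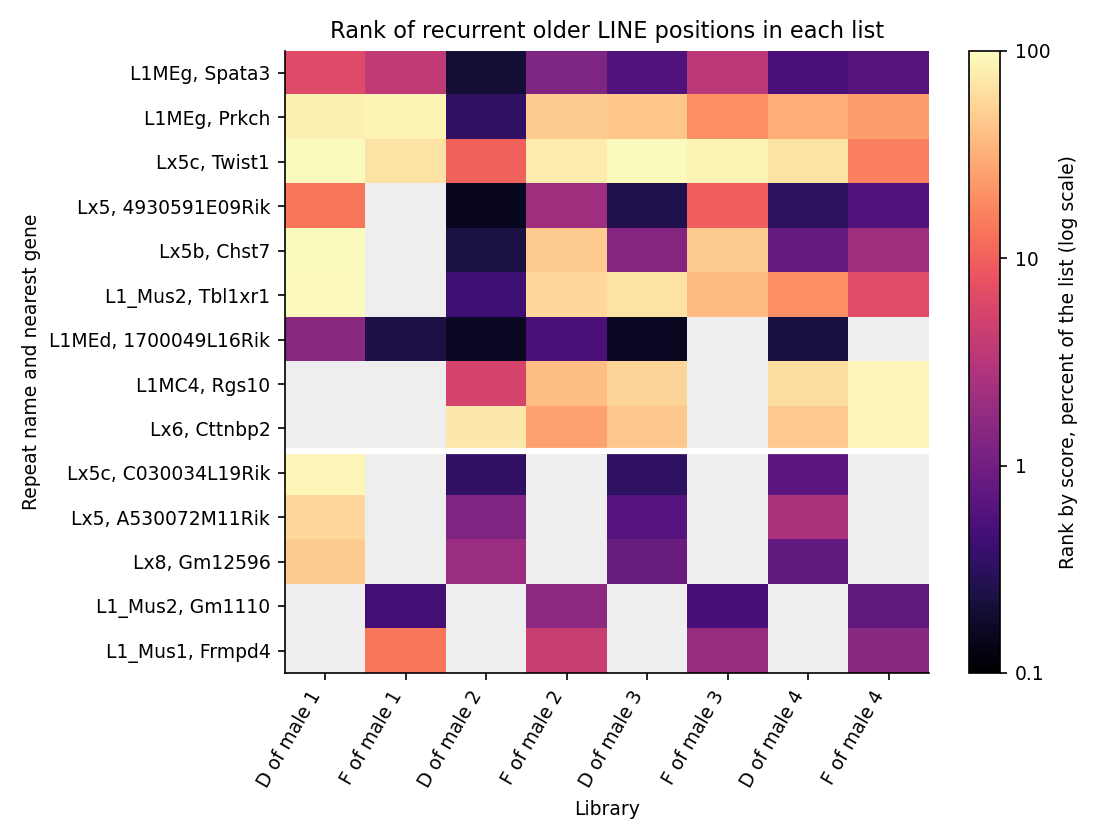
Rank by score (percent of the list, log colour scale, dark is high) of older LINE positions in the 8 libraries, labelled by repeat name and nearest gene, with grey for no peak. Of the 10 positions found in most libraries 9 are above the white line, and below it are the 3 with a peak in every D and no F library (Lx5c, Lx5 and Lx8) and the 2 with a peak in every F and no D library (Gm1110 and Frmpd4).

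Of the 10 positions found in most libraries, 3 had a peak in all 8. An L1MEg element at chr1:86004348-86004596, 17470 bases from Spata3, a testis gene, had a peak in all 8 lists, with D scores of 70.7, 177.5, 402.9 and 592.7 and F scores of 127.3, 196.1, 137.8 and 135.3. In D of male 2 its peak carried the name L1Md_T and is not counted as older. Another L1MEg element at chr12:73618416-73618815, in intron 2 of Prkch, a protein kinase C gene, was named the same in all 8 lists. An Lx5c element at chr12:34073571-34073970, 116069 bases from Twist1, was the third, with the name L1Md_T in 4 of the lists.

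The highest older LINE peak of 5 libraries lay in an L1MEd element at chr10:72297060-72297459, 316571 bases from 1700049L16Rik. It scored 685.7, 269.9, 2143.8 and 2278.3 in the D lists, taken from male 1 to male 4, and 1650 and 1471.6 in F of males 1 and 2. In D of male 1 it came after 2 other older LINE peaks, and F of males 3 and 4, both on HFD, had no peak there. With 2 males per diet this split has no test that could pass, and the position was picked for its scores.

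An Lx5b element on X near Chst7 had older LINE peaks in 7 lists, with scores of 8.36, 129.8, 222.2 and 267.2 in D. A position near 4930591E09Rik and another near Tbl1xr1 each had a peak in 7 lists, named (TTAGGG)n, the telomere repeat unit, in 6 and 5 of them and Lx5 or L1_Mus2 in the rest. Positions in L1MC4 near Rgs10 and in Lx6 near Cttnbp2 had peaks in 5 lists, the latter named Lx6 in 1 of them.

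In F of male 3 an L1VL2 element at chr8:19151237-19151462, 6538 bases from Spag11a, a defensin-like gene of the epididymis, had a score of 1074.8. In the same list an L1_Mus1 element at chr17:40310844-40311069 in intron 2 of Crisp1, an epididymal secretory protein, had 419.8, and this position had no peak in another list. This is the list in which 10 of 16 epididymal markers had a peak in the gene body or at its ends. The peak in intron 2 of Crisp1 meets that rule for Crisp1 by itself, so it is not separate from the count. In F of male 1 an L1_Mus3 element in intron 6 of Man1a had 224.6, and in F of male 4 an Lx3C element near Chil4 had 80.8. In D of male 1 an L1_Mur3 element near Slc6a14 (2378.6) and an Lx2 element near Cyp2c50 (1543.2) were the highest older LINE peaks, at ranks 46 and 49 of the list.

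The score of a typical older LINE peak was close to that of its list. The median older LINE peak stood at percentile 54.5, 51.9, 55.3 and 54.9 of its own list for the D libraries and at 35.0, 50.9, 51.9 and 46.8 for F, males 1 to 4. F of male 1, where exon peaks abound, was the lowest. The share of the summed score that fell in older LINE peaks was 0.280% to 6.35%, and in every list it lay below their share of peaks.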

How the data were processed

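Peak lists of 8 sperm RNA libraries, D and F of 4 Dnmt2-/- males, were analysed. The authors trimmed reads with cutadapt and Trimmomatic 0.36, aligned them with Hisat2 to the mouse genome, called peaks in each library with HOMER 4.9 and annotated them on mm10. Each deposited list gives a peak score by the authors, scaled within the list, so scores were compared within a list only. Columns of other samples left unused numbered 0.

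Peaks were selected by repeat name and counted per library in Python (3.11.15) using the packages pandas (2.3.3), numpy (2.4.6), scipy (1.17.1) and matplotlib (3.10.9). The D and F libraries were paired because both came from the same animal. F minus D was tested by exact sign-flip permutation over 4 males (16 patterns) and diets by exact permutation over 6 splits, all two-sided. Wilson intervals cover counting error only, and the read depth of the libraries is not used here. Gene symbols of introns came from RefSeq names, and exons and sequences from GENCODE M21.

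Text names the 10 subfamilies with most peaks, the 3 highest older LINE peaks of each list, the 10 positions in most lists and the 5 genes with most intron peaks (6 with a tie). Of these positions 1 is not reported here. The members, lists and tests were chosen with earlier results of these data known. The count of repeat names lower in F was tested on simulated data.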

Additional observations from a re-analysis of the deposited data

Results flagged for a closer look

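L1M, L1P and HAL1 elements were 14.5% of older LINE peaks in D of male 1, far from the 8.69% to 9.32% of the other 3 D libraries. L1_Mm elements were 0.391% of older LINE peaks in the same library, against 0.0880% to 0.125% in the others, which rests on 2 peaks. D of male 1 is the shortest list, with 512 older LINE peaks. Of 38 groups of 4 libraries examined for a distant sample, chance alone gives such a value in about 5%.

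F minus D of the older LINE share of annotated peaks went down in both ND males (mean −7.26 percentage points) and up in both HFD males (0.923), a gap of 8.18 between the diets. The values of males 1 to 4 were −12.8, −1.68, 0.0531 and 1.79, so male 1 lay far from the rest and male 3 barely moved. Over intron and intergenic peaks the means were −4.75 and 2.14, a gap of 6.89. Permuting the diet labels gave p = 0.333 for both by an exact test, the smallest that 2 males per diet allow, and 14 F minus D measures were compared between diets. Measures averaged over both libraries of a male were compared as well. Of these the log2 ratio of the median distance of older LINE peaks to that of the other intron and intergenic peaks (ND 0.927, HFD 0.786) also gave p = 0.333 by the same exact test.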

How the results depend on the processing

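Of 186 alternative values, 161 kept their direction and their side of the threshold (0.05), 18 reversed, 6 counts or shares moved and 1 passed the threshold. For most of them the side of the threshold was fixed in advance. The smallest p possible was 0.125 for the sign-flip test over 4 males and 0.333 for the diet test. Only the permutation test without pairing, with a smallest p of 0.0286, could cross it. Of the alternatives 122 were planned and 64 were added after seeing the data. The later ones include "males 1 and 3 left out", the intron and intergenic total and the exclusion of Frmpd4. They also include all those for L1_Mus alone and for L1_Mur and L1_Rod alone. Also later were the contrasts of intergenic share and distance with the other peaks, and between Lx and L1M, L1P and HAL1. Leaving out 1 male at a time, F minus D ranged in percentage points from −4.82 to 0.0553 for the older LINE share of peaks, from −2.57 to 0.866 over intron and intergenic peaks and from −7.12 to 0.437 of all LINE peaks. In each the highest value was the one without male 1. Among older LINE peaks it ranged from −0.771 to 2.34 for L1M, L1P and HAL1, from −0.0879 to 0.466 for L2 (−0.0717 without male 4), from −1.28 to 9.91 for L1_Mus and from −0.502 to 2.81 for L1_Mur and L1_Rod. HFD minus ND in D ranged from −1.74 to 0.299 (0.140 without male 2). The number of families that moved one way in every male was 1 and ranged from 1 to 4, and the 38 repeat names lower in F became 39 to 58. With males 1 and 3 left out, F minus D was 0.0564 for the share of peaks, 0.0461 over intron and intergenic peaks, 3.48 of all LINE peaks, 1.35 for the intergenic share, −2.73 for L1_Mus, L1_Mur and L1_Rod together and −6.26 for L1_Mus alone, and 2 families moved one way. F minus D of the share of peaks was −1.41 with peaks weighted by score and −6.73 without rRNA, satellite, simple and low-complexity repeats. HFD minus ND in D became 0.572 without rRNA, satellite, simple and low-complexity repeats and 4.06 with peaks weighted by score. With at least 300 peaks per name 21 names were lower in F, and with 50% overlap of both peaks the shared part was 6.75%. Without the replicate block, that is without pairing by male, L1VL had the same difference of 1.57 with an exact p = 0.0286, and no other family passed 0.05. The causes were not tested. The comparison of A plus T content was not run, since no genome of the build was used here.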
